A study of Mus musculus with 6 samples.

Results

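The 9 genes described here are Mpo, Elane, Prtn3, Ctsg, Ms4a3, Plac8, Srgn, Nkg7 and Hp, a set named for the primary granules of granulocyte-monocyte progenitors. They were chosen by symbol, all 9 stood among the 18491 genes of the deposited table, and all 9 passed the filter on low counts, as did 15474 genes in all. RNA was sequenced from cells that had been sorted from mouse bone marrow and were labelled haematopoietic stem progenitor cells, in 3 wild-type and 3 Robo1 knockout libraries. The sample descriptions give these groups, and the series' design text describes deletion of Robo1 by Mx1-cre with 3 doses of poly(I:C). The labels place the sort of both groups 8 months after poly(I:C). Other labels differ from this. The titles name shCtrl and shROBO1, the genotype field reads WT or ROBO1 knockdown, and the treatment field reads scramble shRNA control in wild type and ROBO1, ROBO2 and ROBO3 knockdown in turn in the other group. Mx1-cre is switched on by interferon and acts in blood cells and in other tissues such as the liver, so it does not confine a deletion to stem cells. The age of the mice, the number per library and whether libraries came from separate mice are not given in the sources used here. The p-values thus reflect variation among these 6 libraries alone, and that variation may be technical. Robo1 itself was not analysed here, and the labels were not checked against it.

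Primary granules, also called azurophil granules, are the first granules that a developing granulocyte makes. Their main contents are made at the progenitor and promyelocyte stages, and transcription of these genes is switched off as the cells mature and turn to later granules. Myeloperoxidase (Mpo) makes hypochlorous acid, and neutrophil elastase (Elane), proteinase 3 (Prtn3) and cathepsin G (Ctsg) are the serine proteases stored beside it. Serglycin (Srgn) is the core protein of a proteoglycan that holds basic proteins inside granules. The other members are not known as primary granule contents. Ms4a3 encodes a membrane protein used to mark granulocyte-monocyte progenitors, Plac8 a small cysteine-rich protein of myeloid cells and progenitors, and Nkg7 a membrane protein of cytotoxic granules in lymphocytes. Hp encodes haptoglobin, which binds free haemoglobin and in human neutrophils is stored in the later, specific granules.

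The promoters of the 4 enzyme genes are shown because these genes form the core of the set. Promoter windows of 300 bases (250 before to 50 after a start, from RefSeq on build GRCm38.p6) were matched for 8 of the 9 genes, all but Hp. Capitals mark AGGAAGT, a motif of the myeloid factor PU.1. The motifs were picked after the sequences had been read. Each sequence is written 5′ to 3′ on the strand of its gene, at chr11:87793534-87793833 (plus) for Mpo, chr10:79886062-79886361 (plus) for Elane, chr10:79879417-79879716 (plus) for Prtn3 and chr14:56102525-56102824 (minus) for Ctsg.
Mpo: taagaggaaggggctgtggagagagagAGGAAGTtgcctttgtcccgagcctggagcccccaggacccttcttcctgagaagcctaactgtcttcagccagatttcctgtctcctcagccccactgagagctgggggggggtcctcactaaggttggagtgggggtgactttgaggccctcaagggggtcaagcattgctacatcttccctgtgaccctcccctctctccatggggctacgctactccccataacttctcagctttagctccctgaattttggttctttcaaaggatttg
Elane: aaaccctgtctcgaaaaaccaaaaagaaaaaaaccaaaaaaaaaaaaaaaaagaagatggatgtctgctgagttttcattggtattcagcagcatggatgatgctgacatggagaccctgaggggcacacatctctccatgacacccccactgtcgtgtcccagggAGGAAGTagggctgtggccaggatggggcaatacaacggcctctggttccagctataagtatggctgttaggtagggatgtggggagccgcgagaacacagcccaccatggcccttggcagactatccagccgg
Prtn3: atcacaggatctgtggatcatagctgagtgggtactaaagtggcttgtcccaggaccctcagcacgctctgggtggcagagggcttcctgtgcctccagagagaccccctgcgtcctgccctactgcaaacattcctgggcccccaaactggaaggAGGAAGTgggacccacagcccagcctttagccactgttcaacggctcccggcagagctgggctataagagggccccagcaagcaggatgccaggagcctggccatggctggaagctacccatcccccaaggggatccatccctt
Ctsg: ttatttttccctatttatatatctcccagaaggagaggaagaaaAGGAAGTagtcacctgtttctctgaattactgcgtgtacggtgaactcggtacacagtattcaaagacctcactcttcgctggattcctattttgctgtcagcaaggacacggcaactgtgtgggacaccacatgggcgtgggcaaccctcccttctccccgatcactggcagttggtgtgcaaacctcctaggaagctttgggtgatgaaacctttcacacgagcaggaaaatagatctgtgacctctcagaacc

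AGGAAGT or its reverse complement ACTTCCT stood in the windows of all 4 enzyme genes and of none of the other 4 genes with a window, against 9.35% of 32851 promoter windows of the same length. The match began 84 bases before the RefSeq start in Elane, 94 in Prtn3, 206 in Ctsg and 223 in Mpo. These starts need not equal the ends of the gene spans given below, and the Prtn3 window lies inside its span. A Myb motif, AACNGNC on either strand, was matched in Mpo, Elane, Ctsg, Plac8 and Nkg7, and in 32.84% of all windows. The Runx motif TGTGGT, on either strand, was matched in Ctsg, Plac8, Srgn and Nkg7, and in 16.76% of all windows. A C/EBP motif, TTGCNNAA on either strand, was matched in Ms4a3 and Plac8, and in 10.8% of all windows. No matches of different motifs overlapped in the members' windows. Plac8 and Srgn have 2 windows each, and a match in either was counted. The members are counted as genes and the shares as windows. Since the motifs were picked after the sequences had been read, setting the members beside these shares is not a test. A match describes letters and is not a site of binding.

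Total counts ran from 44578916 to 58106099 in wild type and from 42235077 to 57058267 in knockout. The libraries differed in composition between the groups. The 100 genes outside the set with the most counts took 28.8 to 29.3% of counts in wild type and 41.2 to 42.1% in knockout, and 17418 to 17671 genes had a count in wild type against 16232 to 16609 in knockout. Every fold change therefore depends on how libraries are scaled. TMM, a scaling built to be robust to such a shift, gave the main values. Scaling by total counts alone moved the median log2 fold change of all genes tested by -1.13, from -0.09 to -1.22. Levels are given as CPM, counts scaled to a common library size, with TMM, and every value with ± is a mean and SD over 3 libraries.

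The 9 genes together made up a larger part of the knockout libraries. They took 14.6%, 13.9% and 14.6% of all counts in the wild-type libraries and 19.7%, 19.3% and 19.6% in the knockout libraries. The mean share was 14.3 ± 0.421% in wild type and 19.5 ± 0.206% in knockout (SD, n = 3 each), a difference of 5.18 percentage points. The groups did not overlap, and the exact two-sided permutation test gave p = 0.1, the smallest that 3 against 3 libraries allow. Mpo and Elane held most of this share, and more counts were assigned to Mpo than to any other gene of the table in both groups.

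**Figure D1:**
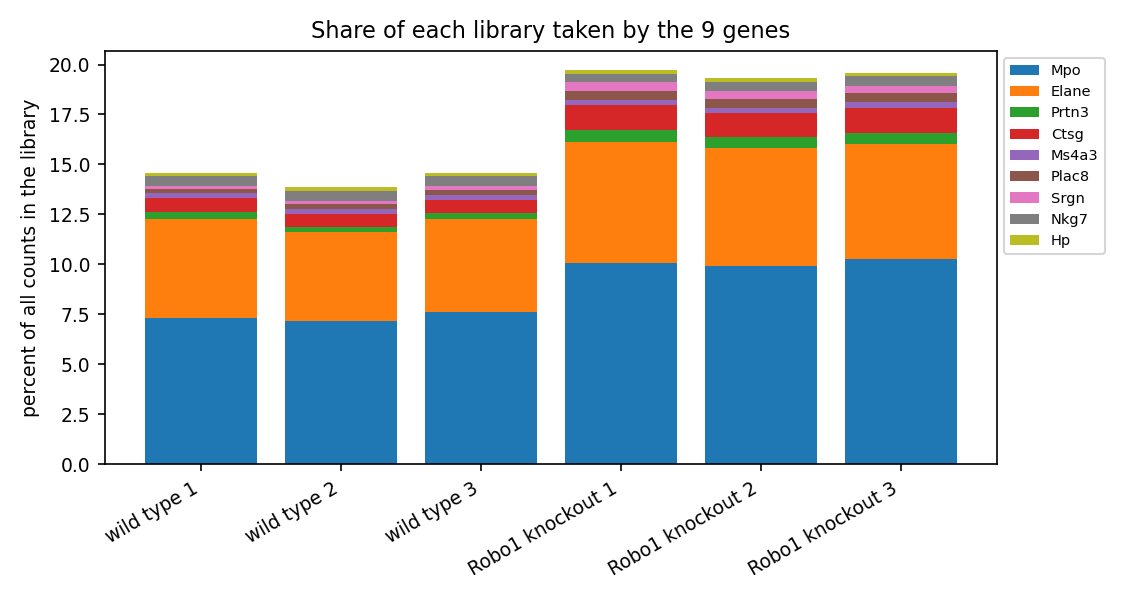
Stacked bars show the percent of all counts in each of the 6 libraries taken by each of the 9 genes. The 3 wild-type bars end between 13.9% and 14.6% and the 3 knockout bars between 19.3% and 19.7%, and Mpo and Elane fill most of each bar.

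With TMM scaling all 9 genes rose in knockout, by 1.92-fold (Nkg7) to 5.36-fold (Srgn), in edgeR's quasi-likelihood test with Benjamini-Hochberg adjustment over all genes, but with total counts Ms4a3 and Hp were not called and Nkg7 was called lower. Of all genes tested, 17.2% were called higher in knockout with TMM and 14.4% lower. On the log2 scale the median of the 9 genes was 1.59 by TMM and 0.45 by total counts. All knockout libraries stood above all wild-type libraries for 9 of the 9 genes by TMM, where 22.2% of all genes did so and 24.4% did the reverse. By total counts this held for 6 of the 9 genes, where 4.85% of all genes did so, and the reverse held for Nkg7, where 76.1% of all genes did the reverse. With total counts 6 of the 9 were called higher, where 4.23% of all genes were, and 1 lower, where 70.7% of all genes were. In bulk libraries a change in the number of cells of a type cannot be told apart from a change in RNA per cell.

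**Figure D2:**
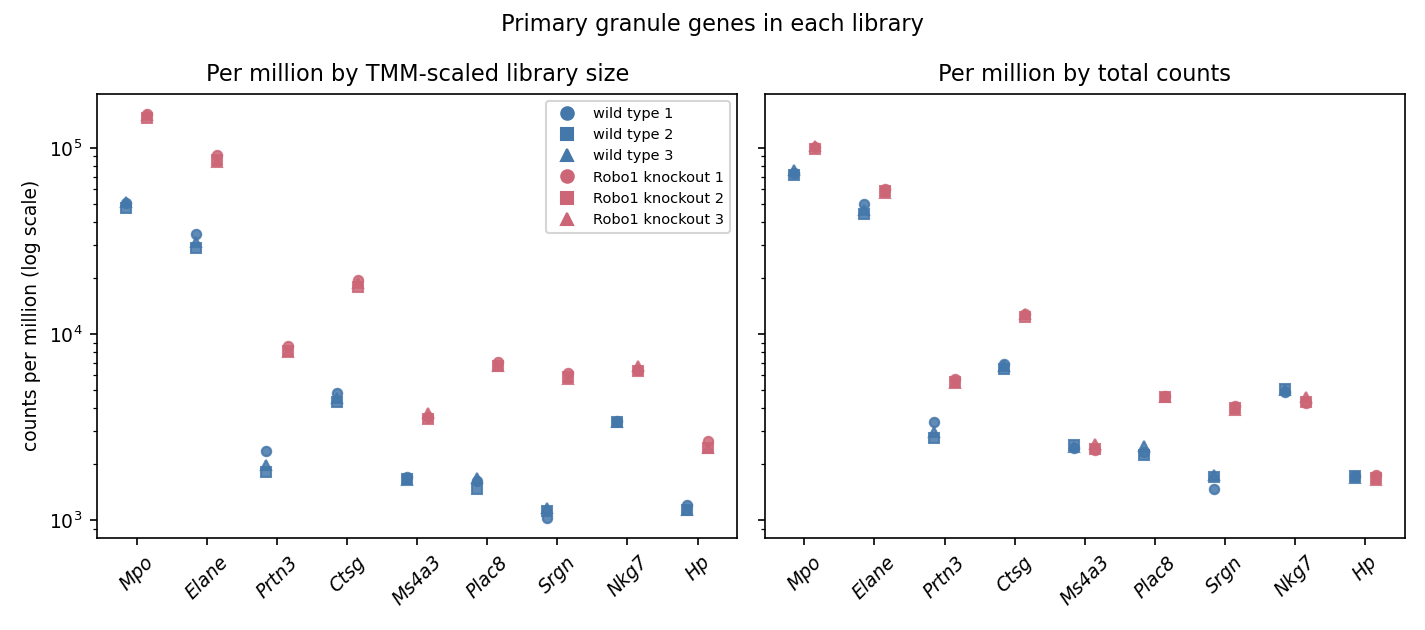
Points show CPM in each library on a log axis for the 9 genes, scaled by TMM and by total counts, with the 3 wild-type and 3 knockout libraries side by side. With TMM every knockout point lies above every wild-type point of the same gene, while with total counts the groups overlap for Ms4a3 and Hp and are the other way round for Nkg7.

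Mpo (ENSMUSG00000009350, chromosome 11, 87793581 to 87804413, plus strand, build GRCm38, as for the genes that follow) stood at 50838, 47373 and 51024 CPM in the wild-type libraries and at 152780.0, 144745 and 151264 CPM in the knockout libraries. The knockout libraries were all far above the wild-type ones. The log2 fold change came to 1.59 (SE 0.05, edgeR adjusted p = 6.88e-08) by TMM and to 0.45 (SE 0.04, edgeR adjusted p = 5.85e-06) by total counts. Its share of all counts went from 7.36 ± 0.217% to 10.1 ± 0.185% (SD, n = 3 each). The antisense gene Gm11505 overlaps Mpo, and without a stated strand setting the reads of the pair cannot be told apart. Gm11505 had at most 16020 counts in a library, where Mpo had at least 3254371.

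Elane (ENSMUSG00000020125, chromosome 10, 79886247 to 79888215, plus strand) stood at 34609, 29116 and 31258 CPM in the wild-type libraries and at 91599, 86141 and 84338 CPM in the knockout libraries. The groups were again well apart. Its log2 fold change came to 1.46 (SE 0.07, edgeR adjusted p = 4.43e-07) by TMM and to 0.33 (SE 0.05, edgeR adjusted p = 0.000225) by total counts, the smallest of the 6 rises called under both scalings.

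Prtn3 (ENSMUSG00000057729, chromosome 10, 79874476 to 79883174, plus strand), which lies beside Elane, stood at 2352, 1818 and 1990.1 CPM in the wild-type libraries and at 8651, 8066 and 8020.3 CPM in the knockout libraries. The groups did not overlap, and relative to their mean the wild-type libraries spread more here than for any other of the 9 genes. The log2 fold change came to 2.01 (SE 0.09, edgeR adjusted p = 3.43e-07) by TMM and to 0.87 (SE 0.07, edgeR adjusted p = 4.18e-06) by total counts. Plppr3, which overlaps Prtn3 on the opposite strand, had at most 2634 counts in a library. Without a stated strand setting the reads of this pair cannot be told apart either.

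Ctsg (ENSMUSG00000040314, chromosome 14, 56099881 to 56102574, minus strand) stood at 4839, 4298 and 4547 CPM in the wild-type libraries and at 19526, 17938 and 18771 CPM in the knockout libraries. Every knockout library was well above every wild-type library. Its log2 fold change came to 2.04 (SE 0.06, edgeR adjusted p = 5.35e-08) by TMM and to 0.91 (SE 0.05, edgeR adjusted p = 6.99e-07) by total counts.

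Srgn (ENSMUSG00000020077, chromosome 10, 62493833 to 62527451, minus strand), the serglycin gene, had the largest fold change of the 9 genes under both scalings. It stood at 1030.2, 1122 and 1170.0 CPM in the wild-type libraries and at 6201, 5875 and 5722 CPM in the knockout libraries. The groups were far apart. The log2 fold change came to 2.42 (SE 0.07, edgeR adjusted p = 3.67e-08) by TMM and to 1.29 (SE 0.07, edgeR adjusted p = 7.42e-07) by total counts.

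Plac8 (ENSMUSG00000029322, chromosome 5, 100553725 to 100572245, minus strand) stood at 1619, 1469 and 1683 CPM in the wild-type libraries and at 7077, 6699 and 6753 CPM in the knockout libraries. The groups did not overlap. Its log2 fold change came to 2.11 (SE 0.07, edgeR adjusted p = 5.35e-08) by TMM and to 0.97 (SE 0.05, edgeR adjusted p = 8.50e-07) by total counts, near those of Ctsg and Prtn3.

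The other 3 genes changed direction or lost their call with total counts. Ms4a3 (ENSMUSG00000024681, chromosome 19, 11629496 to 11640851, minus strand) stood at 1708, 1672 and 1650.0 CPM in the wild-type libraries and at 3595, 3502 and 3791 CPM in the knockout libraries. With TMM the groups did not overlap, and its log2 fold change was 1.11 (SE 0.05, edgeR adjusted p = 4.43e-07). By total counts it was -0.02 (SE 0.05, edgeR adjusted p = 0.733) and the groups overlapped.

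Hp (ENSMUSG00000031722, chromosome 8, 109575128 to 109579172, minus strand) stood at 1208, 1134 and 1135 CPM in the wild-type libraries and at 2653, 2455 and 2433 CPM in the knockout libraries. As for Ms4a3, the groups were apart with TMM and overlapped with total counts. Its log2 fold change came to 1.12 (SE 0.06, edgeR adjusted p = 7.85e-07) by TMM and to -0.02 (SE 0.05, edgeR adjusted p = 0.756) by total counts.

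Nkg7 (ENSMUSG00000004612, chromosome 7, 43437073 to 43438249, plus strand) stood at 3421, 3357 and 3362 CPM in the wild-type libraries and at 6451, 6319 and 6732 CPM in the knockout libraries. The knockout libraries were higher with TMM, without overlap, and its log2 value of 0.94 (SE 0.05, edgeR adjusted p = 8.53e-07) was the smallest of the 9. A correction for GC content and gene length lowered it to 0.61. With total counts every knockout library lay below every wild-type library, and the value was -0.19 (SE 0.05, edgeR adjusted p = 0.00498). The authors' deposited DESeq2 comparison gives Nkg7 a log2 fold change of 0.95 (DESeq2 adjusted p = 2.96e-50) and the class STABLE. It classes the other 8 genes as UP.

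**Figure D3:**
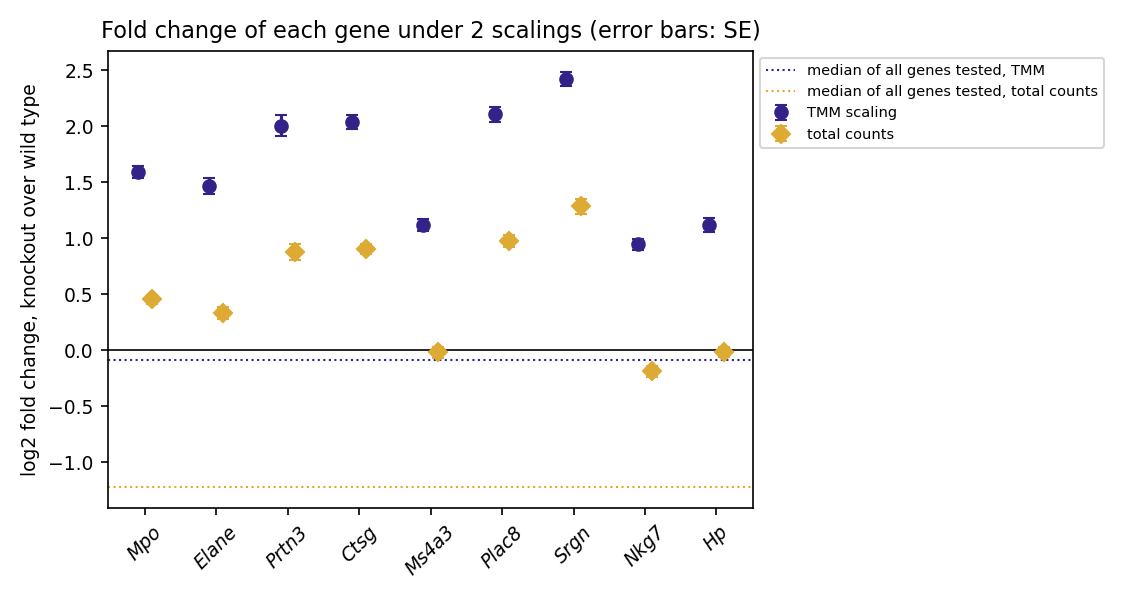
Points show the log2 fold change of knockout over wild type for each of the 9 genes, with SE bars, under TMM and under total counts, and dotted lines mark the medians of all genes tested. With TMM the points run from 0.94 to 2.42, and with total counts Srgn is highest at 1.29 while Ms4a3, Hp and Nkg7 lie at -0.02, -0.02 and -0.19.

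Levels of different genes were compared in the deposited FPKM, which divide by gene length and follow total counts. Elane was the highest of all genes in both groups, at 39636 ± 1893 FPKM in wild type and 49963 ± 1462 FPKM in knockout (SD, n = 3 each). Mpo was next among the 9, at 22601 ± 821 and 30927 ± 691 FPKM, and Ctsg followed at 5644 ± 137 and 10593 ± 324 FPKM. In wild type the order went on with Nkg7 at 5120.4 ± 183, Plac8 at 2639 ± 175, Prtn3 at 2606 ± 239, Ms4a3 at 2123 ± 59.3, Srgn at 1362 ± 131 and Hp at 1063 ± 8.66 FPKM. Plac8 and Prtn3 differed there by less than their SD. In knockout Plac8 stood at 5178 ± 82.1, Prtn3 at 4698 ± 106, Nkg7 at 4460.0 ± 190.2, Srgn at 3249.8 ± 57.4, Ms4a3 at 2099 ± 97.8 and Hp at 1052 ± 35.2 FPKM. Nkg7 stood above Plac8 in each wild-type library and below it in each knockout library, and Srgn stood below Ms4a3 in each wild-type library and above it in each knockout library. Nkg7 and Prtn3 were not separated in knockout, where Nkg7 was the higher in replicate 3.

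The 9 genes differed in the size of their change. A ratio of a pair of genes within the same library needs no library scaling, and each gene was set against Mpo in this way. Relative to Mpo, Srgn was higher in knockout by a log2 difference of 0.83, Plac8 by 0.52, Ctsg by 0.45 and Prtn3 by 0.42. The same difference was -0.65 for Nkg7, -0.48 for Ms4a3, -0.47 for Hp and -0.12 for Elane. In all 8 ratios the 3 knockout libraries did not overlap the 3 wild-type libraries, and each had an exact two-sided permutation p = 0.1, the smallest possible here (0.1 after Benjamini-Hochberg adjustment over the 8). Of 13961 genes set against Mpo in this way, 2.56% had all knockout ratios above all wild-type ratios and 86.6% had them all below.

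Srgn had 2.03%, 2.37% and 2.29% of the Mpo count in the wild-type libraries and 4.06%, 4.06% and 3.78% in the knockout libraries. Ctsg had 9.52%, 9.07% and 8.91% of it in wild type and 12.8%, 12.4% and 12.4% in knockout. Nkg7 went the other way, from 6.73%, 7.09% and 6.59% to 4.22%, 4.37% and 4.45%. The ratio of Elane to Mpo moved least, from 68.1%, 61.5% and 61.3% in wild type to 60.0%, 59.5% and 55.8% in knockout, and wild type replicate 1 lay above the other libraries. Without that library the log2 difference of Elane was -0.07, against -0.12 with all libraries. None of these ratios was corrected for GC content and length. With that correction and TMM the log2 fold change was 1.16 for Elane, 1.68 for Mpo, 1.85 for Ctsg and 2.19 for Prtn3. Elane then lay further from Mpo than Ctsg did, so the order of the ratios depends on this correction.

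**Figure D4:**
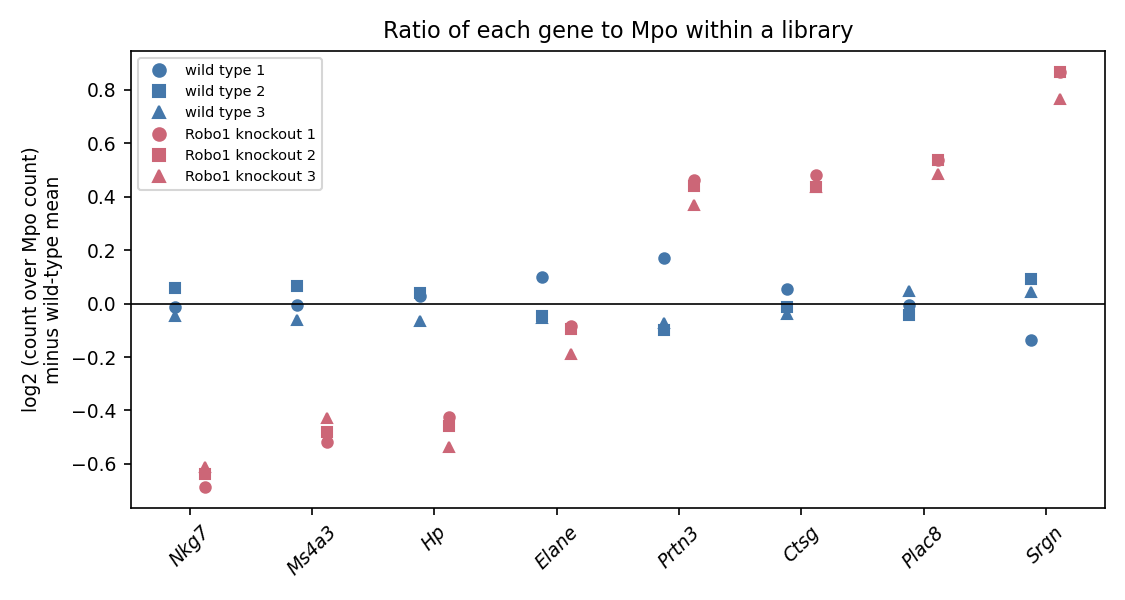
Points show the log2 ratio of each gene's count to the Mpo count in the same library, minus the wild-type mean of that gene, for the 3 wild-type and 3 knockout libraries. The knockout points of Nkg7, Ms4a3, Hp and Elane lie below their wild-type points, and those of Prtn3, Ctsg, Plac8 and Srgn lie above.

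Over all 36 pairs of the 9 genes the ratio separated the groups without overlap in 32. Such separation was common, since the ratio to Mpo separated the groups for 89.2% of 13961 genes, so the count of 32 is not a result about these genes. The 4 pairs that overlapped were Prtn3 with Ctsg (log2 difference -0.03), Prtn3 with Plac8 (-0.09), Ctsg with Plac8 (-0.07) and Ms4a3 with Hp (0.00). The pairs too were not corrected for GC content and length. The exact permutation p of the 32 was 0.1, or 0.113 after adjustment over the 36 pairs. The ratio of Srgn to Nkg7 was 2.79 times as high in knockout as in wild type, the widest of the 36. Among the proteases the ratio of Ctsg to Elane was 1.49 times as high.

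Genes of like count rose as well. Of the 69 other genes whose mean CPM over all 6 libraries was at least that of Hp, the lowest of the 9 by this mean at 1836 CPM, 68 were called higher in knockout with TMM, 0 lower and 1 was not called. That mean includes the knockout libraries, so a gene that rose passes it more easily. With the mean of the wild-type libraries alone, a choice made after seeing the data, 62 other genes stood at or above Srgn, the lowest of the 9 there at 1108 CPM, and 59 were called higher, 0 lower and 3 not called. With total counts 40 of these 62 were called higher and 10 lower. Their median on the log2 scale was 1.53 by TMM and 0.40 by total counts, against 1.59 and 0.45 for the 9 genes. Ranked by fold change among the 71 genes, members included, Srgn was number 6, Plac8 9, Ctsg 11, Prtn3 13, Mpo 34, Elane 41, Hp 53, Ms4a3 54 and Nkg7 60. By wild-type level the median log2 fold change with TMM was -0.18 for 6035 genes at 1 to 10 CPM, 0.47 for 944 genes at 100 to 1000 CPM and 1.55 for 75 genes at 1000 to 10000 CPM, 7 of them members. The part of abundance in the rise of the 9 genes was not tested.

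**Figure D5:**
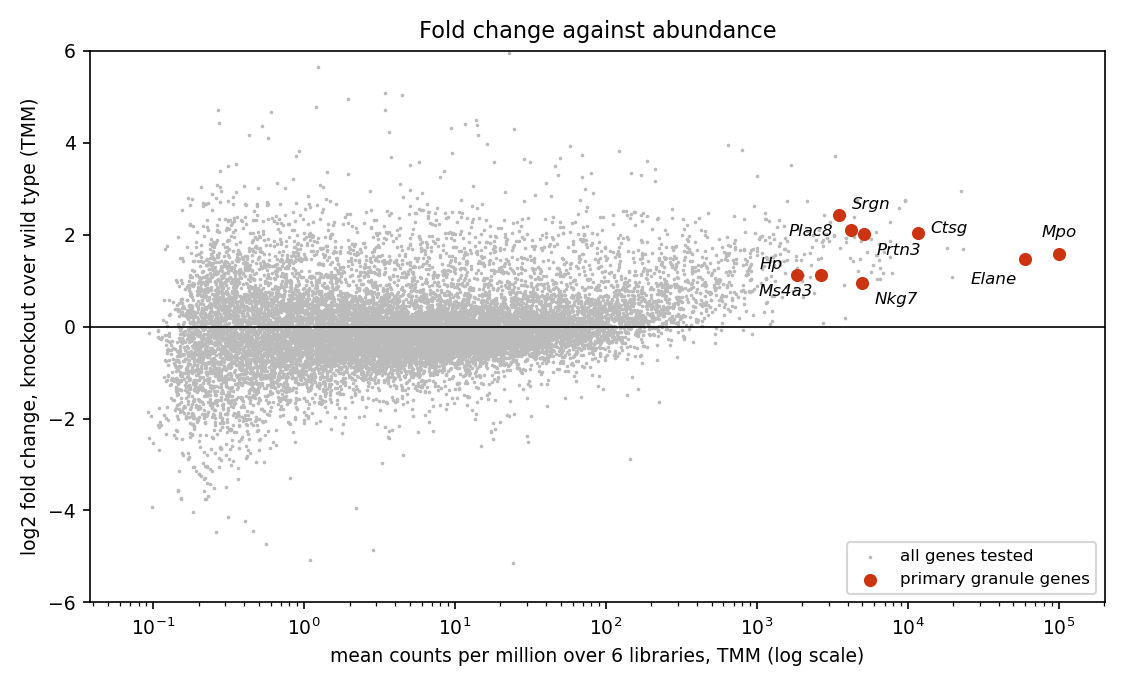
Points show the log2 fold change with TMM of each gene tested against its mean CPM over all 6 libraries on a log axis, with the 9 genes marked by name. The 9 genes lie at the abundant end, where nearly all genes are above 0, and 97 genes beyond a log2 fold change of 6 in either direction lie outside the plotted range.

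Other genes of primary granules and granulocyte precursors moved in part. Of 28 tested, 15 rose, 4 fell and 9 were not called with TMM, at a median log2 fold change of 0.53. By total counts the median was -0.61, with 5 higher and 19 lower. Among all genes tested 17.2% rose and 14.4% fell with TMM, and 4.23% were higher and 70.7% lower by total counts. Gstm1, a glutathione transferase gene, went from 975 ± 82.7 CPM to 4211 ± 146 CPM (SD, n = 3 each), a rise of 2.11 with TMM and 0.98 with total counts on the log2 scale. Calr encodes calreticulin, a chaperone that binds newly made myeloperoxidase, and rose by 2.04 with TMM and 0.91 with total counts. The lysozyme gene Lyz2 rose by 1.44 and 0.31. The metallothionein gene Mt1 rose by 1.23 with TMM and was not called with total counts (0.10). Atp8b4 fell by 0.64 with TMM and fell by 1.78 with total counts, and Bex6 fell by 0.55 and fell by 1.68.

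The genes that activate and restrain proteases moved in part too. Of 12 tested, 5 rose, 0 fell and 7 were not called with TMM, at a median log2 fold change of -0.04. By total counts the median was -1.17, with 2 higher and 8 lower. Among all genes tested 17.2% rose and 14.4% fell with TMM, and 4.23% were higher and 70.7% lower by total counts. Serpinb1a, an inhibitor of elastase, proteinase 3 and cathepsin G, went from 521 ± 20.7 CPM to 1254 ± 46.4 CPM (SD, n = 3 each), a log2 rise of 1.27 with TMM and 0.13 with total counts. Slpi, a secreted inhibitor of elastase and cathepsin G, rose from 127 ± 20.1 CPM to 507 ± 34.0 CPM (SD, n = 3 each), and was also higher with total counts (0.87). Cst7, an inhibitor of cysteine cathepsins, rose by 1.23 with TMM and was not called with total counts (0.10). Cst3, the cystatin C gene, rose by 0.92 with TMM and was called lower with total counts (-0.21). Ctsc was singled out after its values were seen, because it encodes cathepsin C, which cuts the granule serine proteases to their active form. It went from 45.6 ± 3.09 CPM to 59.5 ± 1.56 CPM (SD, n = 3 each), a log2 rise of 0.38 with TMM (edgeR adjusted p = 0.00479), and was called lower with total counts (-0.75).

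Transcription factors and receptors of the granulocyte-monocyte stage went both ways, as did all genes tested, of which 17.2% rose and 14.4% fell. Of 23 tested, 3 rose, 5 fell and 15 were not called with TMM, at a median log2 fold change of -0.07. By total counts the median was -1.20, with 0 higher and 20 lower, where 4.23% and 70.7% of all genes were. Spi1, which encodes PU.1, went from 51.6 ± 1.01 CPM to 30.5 ± 7.25 CPM (SD, n = 3 each), a log2 fold change of -0.76 (edgeR adjusted p = 0.00502) with TMM and -1.89 with total counts. Irf8, a factor of the monocyte branch, and Cebpa, a factor required to form these progenitors, were singled out after their values were seen. Irf8 fell by 0.64 with TMM and Cebpa fell by 0.76, and both were lower with total counts (-1.78 and -1.90). The 3 genes that rose with TMM were Fcgr3 (1.13), an Fc receptor gene, Fcgr2b (0.85) and Myc (1.07). With total counts Fcgr3 (0.00) and Myc (-0.06) were not called and Fcgr2b (-0.28) was called lower.

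Genes of the later granules and of maturing neutrophils also moved in part. Of 20 tested, 8 rose, 3 fell and 9 were not called with TMM, at a median log2 fold change of 0.41. By total counts the median was -0.73, with 1 higher and 14 lower. Among all genes tested 17.2% rose and 14.4% fell with TMM, and 4.23% were higher and 70.7% lower by total counts. S100a8, a subunit of the alarmin calprotectin, went from 2120.0 ± 164 CPM to 7660.1 ± 147 CPM (SD, n = 3 each) and was the one called higher with total counts (0.72, against 1.85 with TMM). Its partner S100a9 rose by 1.31 with TMM and was not called with total counts (0.18). The chitinase-like gene Chil3 (0.86) and the NADPH oxidase subunit gene Cyba (0.85) rose with TMM, and both were called lower with total counts (-0.28 and -0.28). The neutrophil surface gene Cd177 (-0.76) and Cebpe (-0.56), a factor needed for the specific granules, fell under both scalings.

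Serglycin carries chondroitin sulphate chains, and the list of genes for the enzymes that build them is set beside all genes, of which 17.2% rose and 14.4% fell. Of 15 tested, 2 rose, 1 fell and 12 were not called with TMM, at a median log2 fold change of -0.22. By total counts the median was -1.35, with 0 higher and 11 lower, where 4.23% and 70.7% of all genes were. The sulphotransferase gene Chst12 went from 84.7 ± 3.83 CPM to 142 ± 11.3 CPM (SD, n = 3 each), a log2 rise of 0.75 with TMM, and was called lower with total counts (-0.39). Chpf2, a chondroitin polymerising factor gene, rose by 0.94 with TMM and was not called with total counts (-0.19). B3galt6, a galactosyltransferase gene of the linker that joins chain and protein, fell by 1.38 with TMM and was lower with total counts (-2.52), from a low level of 4.51 ± 1.16 CPM in wild type. The sulphotransferase gene Chst11 (-0.49) was not called with TMM and was called lower with total counts (-1.63).

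The nearest genes on either side were looked up for Prtn3 and Elane, Ctsg and Ms4a3, and not for the other 5 members. On either side of the Prtn3 and Elane pair, Ptbp1 (0.28), Plppr3 (0.62) and R3hdm4 (0.27) rose with TMM, and by total counts all 3 were called lower (-0.86, -0.51 and -0.86). Plppr3 overlaps Prtn3, so its value may include reads of Prtn3. Med16 (0.06) and Cfd (-0.26), the adipsin gene, were not called with TMM and were lower with total counts (-1.08 and -1.39). Mcpt8, a basophil protease gene beside Ctsg, rose by 1.20 with TMM and was not called with total counts (0.07). Around Ms4a3 the tested genes Ms4a2 (0.17), Ms4a6d (-0.13), Oosp1 (-0.76) and Oosp2 (-1.53) were not called with TMM. By total counts Ms4a2 (-0.96), Ms4a6d (-1.27) and Oosp1 (-1.90) were called lower, and Oosp2 (-2.64) was not called.

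The genes whose log2 CPM over the 6 libraries followed the mean profile of the 9 genes most closely were Rps16, Eef1g, Akr1a1, C1qbp and Npm1, with Pearson's r from 0.99975 to 0.99997 among 1136 other genes of at least 100 CPM. The 6 points fall into 2 well separated groups and share their libraries and scaling, so r is a description only. Rps16, a ribosomal protein gene, rose by 1.57 with TMM and 0.44 with total counts. Npm1, the nucleophosmin gene, rose by 1.26 and 0.13. The elongation factor subunit gene Eef1g (1.08) and the aldehyde reductase gene Akr1a1 (1.04) rose with TMM and were not called with total counts (-0.06 and -0.09). C1qbp, a mitochondrial protein gene, rose by 0.88 with TMM and was called lower with total counts (-0.26).

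The list of stem and progenitor markers was present at low levels, and markers of other lists moved beside the 9 genes. The counts below stand beside 17.2% of all genes called higher and 14.4% lower by TMM, and 4.23% and 70.7% by total counts. The 9 stem and progenitor markers, of which Cd34 was the highest by CPM at 106 ± 4.54 CPM in wild type (SD, n = 3), together took 0.0242 to 0.0265% of counts in wild type and 0.0117 to 0.0123% in knockout, with 1 higher and 3 lower of 9 tested by TMM, and 0 and 9 by total counts. The 9 markers of granulocyte-monocyte progenitors, 5 of them members, took 12.9 to 13.6% and 17.9 to 18.3%, with 6 higher and 2 lower of 9 tested by TMM, and 4 and 3 by total counts. Of the markers in this list that are not members, Fcgr3 (1.13) was higher by TMM, Irf8 (-0.64) and Cebpa (-0.76) were lower and Csf1r (-0.02) was not called. None of these was higher by total counts. Eosinophil markers took 0.892 to 1.02% and 3.18 to 3.44%, with 8 higher and 0 lower of 8 tested by TMM, and 6 and 0 by total counts. Mature neutrophil markers took 0.324 to 0.369% and 0.529 to 0.536%, with 4 higher and 0 lower of 7 tested by TMM, and 1 and 4 by total counts, and S100a8 was the one higher by total counts. Monocyte and macrophage markers took 0.113 to 0.131% and 0.202 to 0.223%, with 2 higher and 1 lower of 7 tested by TMM, and 1 and 4 by total counts, and Ly6c2 was the one higher by total counts (0.99). B lineage and plasma cell markers took 1.67 to 1.75% and 2.37 to 2.54%, with 2 higher and 2 lower of 7 tested by TMM, and 1 and 5 by total counts, and the immunoglobulin light chain gene Igkc was the one higher by total counts (0.56). Basophil and mast cell markers took 0.294 to 0.328% and 0.231 to 0.264%, with 2 higher and 0 lower of 7 tested by TMM, and 0 and 6 by total counts. Erythroid markers took 0.135 to 0.169% and 0.198 to 0.231%, with 2 higher and 1 lower of 6 tested by TMM, and 2 and 4 by total counts, and megakaryocyte markers 0.0231 to 0.0238% and 0.0114 to 0.0129%, with 1 higher and 2 lower of 5 tested by TMM, and 0 and 4 by total counts. Markers of T and NK cells, which also express Nkg7, took 0.00177 to 0.00205% of counts in wild type and 0.000496 to 0.000498% in knockout, with 0 higher and 1 lower of 5 tested by TMM, and 0 and 4 by total counts. S100a8, Ly6c2 and Igkc, and the granulocyte-monocyte progenitor markers that are not members, were singled out after their values were seen. The shares of the lists follow total counts, and as sums they can rest mostly on the most abundant gene of a list. Summed CPM with TMM of basophil and mast cell markers was 1971 to 2284 in wild type and higher in knockout, at 3489 to 3878. The sum of megakaryocyte markers was also higher, at 168 to 190 against 153 to 162 in wild type, though 1 marker was called higher and 2 lower. Stem and progenitor markers overlapped, at 172 to 180 in knockout and 169 to 175 in wild type. T and NK cell markers stayed lower, at 7.26 to 7.51 against 12.2 to 13.5 in wild type. The part of the marked cells in the change of the 9 genes was not tested.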

How the data were processed

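Raw counts per gene, FPKM and a DESeq2 comparison were deposited by the authors in 1 table for all 6 libraries. The submitters' processing notes name build mm10, the read trimmer fastp 0.22.0, the aligner HISAT2 2.2.1, the counter featureCounts 2.0.1 and DESeq2 1.32.0, without their settings here. The strand setting of the counting was not given in the sources used here. Per the file headers the table also holds the authors' mean signal, log2 fold change with its SE and test score, p-value and adjusted p-value. The deposited per-library values were identified as FPKM by a check against counts, library totals and gene lengths, and served to compare levels between genes and as an alternative for the ratios.

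The counts were tested with edgeR 4.0.16 (R 4.3.3) by its quasi-likelihood test, with TMM scaling, filterByExpr and Benjamini-Hochberg adjustment over 15474 genes, called under 0.05, and again with total counts as the only scaling. An SE is the size of the log2 fold change divided by the square root of F. Shares and within-library ratios were compared by exact two-sided permutation tests. Genes were placed with GENCODE vM21 (GRCm38), which matched 18457 of the 18491 genes. The steps were tested on simulated data. These held no shift in composition like the one between the groups here, so they do not test the choice of scaling. Alternatives were DESeq2 1.42.0 and its size factors, upper quartile factors, TMM without the 9 genes, Elane as the reference of the ratios, a share without the 100 other genes of most counts, no filter on low counts, a replicate block, a correction for GC content and length, and leaving out each library. Abundance set by the wild-type libraries alone was added after seeing the data.

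The 9 genes and the other lists were chosen with earlier results of these data known. From each list the text names up to 4 genes of lowest p, the gene with the highest mean CPM, up to 2 called against the list's main direction, every tested neighbour, and the 5 genes most like the members. Genes named outside this rule are marked as such, and cell markers are given by list. For the 9 genes counting error is small at these depths, and 3 libraries per group set the precision. Counting error is larger for named genes of few counts, such as B3galt6, with 70, 70 and 38 counts in the knockout libraries.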

Additional observations from a re-analysis of the deposited data

How the results depend on the processing

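The choice of scaling changed the results most. With total counts in place of TMM, 655 genes were called higher and 10937 lower, against 2669 and 2229, 6 of the 9 members were called higher and 1 lower, and the log2 fold changes of Ms4a3 (-0.0196), Nkg7 (-0.19) and Hp (-0.0168) reversed. In the 13 other settings all 9 members were called higher, with 0.000272 as the largest adjusted p from edgeR or DESeq2. Each of these used TMM, upper quartile or DESeq2 factors, which take the bulk of genes as unchanged. They thus do not test the choice between such factors and total counts. The TMM factors were 1.44 to 1.52 in wild type and 0.66 to 0.69 in knockout. The correction for GC content and length lowered the log2 fold change of Nkg7 from 0.94 to 0.61 and that of Elane from 1.46 to 1.16. The count of genes lower fell to 1330 with a correction for GC content and length and to 1092 with that correction and a replicate block, and ranged from 1356 to 2142 when 1 library was left out, with 1356 without wild type replicate 2 and 1419 without wild type replicate 3. The cause was not tested. The replicate numbers do not show a pairing, since same-numbered libraries had correlations of 0.041, -0.005 and 0.048 in their deviations from the group means and not every library correlated best with its own number. The replicate block gave 2467 genes higher and 1906 lower. The difference in the members' share of counts ranged from 4.94 to 5.31 percentage points when 1 library was left out and was 13.2 points after the 100 other genes with the most counts were removed. With abundance set by the wild-type libraries alone, chosen after seeing the data, 59 other genes as abundant as the members were called higher, against 68. The ratios to Mpo kept their direction in each setting run, which did not include the correction for GC content and length. With 3 libraries per group the exact tests cannot go below p = 0.1, whatever the depth.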
